A study of Mus musculus with 9 samples.

Results

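The 4 Hox clusters, HoxA, HoxB, HoxC and HoxD, were examined for chromatin retrieved with probes against the long noncoding RNA Gm4665 in male germ cells. The members were 38 Hox genes, of 49603 mouse genes with usable coordinates, found by symbol in a RefSeq table of the build that the deposited intervals use (mm10). They were 10 genes of HoxA (Hoxa2 to Hoxa13), 10 of HoxB, 9 of HoxC and 9 of HoxD. Every deposited interval that overlapped a member or its 5 kb flanks by at least 1 bp was taken. That gave 9 of 38711 Gm4665 intervals and 2 of 9448 LacZ intervals.

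The chromatin came from germ cells of wild-type ICR mouse testes at postnatal day 35, cross-linked and sonicated before capture. There were 3 replicates each of capture with Gm4665 probes, of capture with LacZ control probes (against a bacterial gene that mice lack) and of input DNA, 9 samples in all, and every group shares the strain, age and tissue. The sample titles name the captured RNA LncRNA-20 and the protocols name Gm4665, and no label equates the names. Separate animals are not stated for the replicates, whose spread may therefore be technical. No expression values were used here, so the purity of the germ cells was not checked.

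Hox genes encode homeodomain transcription factors that give cells their position along the body axis and in the limbs. They lie in order within each cluster, and the genes numbered 1 to 4 act in the head and neck while those numbered 9 to 13 act towards the tail and the limb tips. In tissues that do not use them, Hox genes are held silent by Polycomb complexes, some of which place a repressive methyl mark on histone H3. Several long noncoding RNAs are transcribed from the clusters themselves.

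Each deposited interval has 3 folds, 1 per replicate, on a linear scale relative to input. Over the whole list the median fold in replicates 1, 2 and 3 was 11.4, 8.50 and 10.3 with Gm4665 probes, against 23.0, 8.18 and 10.9 with LacZ probes. The 2 lists were made separately and differ in length, so folds were ranked within a list and compared between lists only as ratios. The read totals of the libraries were not used here. The deposited pileup, the read coverage at an interval's summit, was 21 to 105 in the 9 Gm4665 intervals at Hox genes and 46 and 83 in the 2 LacZ intervals. An absent interval means that none was listed, and signal below the authors' threshold was not measured.

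The strongest Gm4665 interval at a Hox gene lay in Hoxd11, which patterns the forearm and the kidney together with Hoxa11. It ran over chr2:74680870-74682416 (1547 bp). RefSeq lists 2 starts for Hoxd11, and the 300 bp window around the downstream start lay wholly inside this interval. It was the only 1 of 24 promoter windows, of the 22 Hox genes with one, that a Gm4665 interval touched, and no LacZ interval touched any. Of all 32851 promoter windows, 1.8% had a Gm4665 interval and 0.728% a LacZ interval. The covered window is shown first, followed by the upstream Hoxd11 window, 1263 bp outside the interval, and the Hoxd8 window, 499 bp outside the other HoxD interval. All are from RefSeq (GRCm38.p6), plus strand, 250 bases before to 50 after the start, and capitals mark CG dinucleotides.
Hoxd11 downstream start, chr2:74682073-74682372: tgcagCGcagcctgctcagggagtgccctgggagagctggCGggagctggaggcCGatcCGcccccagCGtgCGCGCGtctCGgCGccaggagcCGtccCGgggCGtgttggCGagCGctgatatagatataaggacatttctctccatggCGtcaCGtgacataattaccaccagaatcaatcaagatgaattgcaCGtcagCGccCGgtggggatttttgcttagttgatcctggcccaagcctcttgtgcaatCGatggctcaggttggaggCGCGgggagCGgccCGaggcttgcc
Hoxd11 upstream start, chr2:74679308-74679607: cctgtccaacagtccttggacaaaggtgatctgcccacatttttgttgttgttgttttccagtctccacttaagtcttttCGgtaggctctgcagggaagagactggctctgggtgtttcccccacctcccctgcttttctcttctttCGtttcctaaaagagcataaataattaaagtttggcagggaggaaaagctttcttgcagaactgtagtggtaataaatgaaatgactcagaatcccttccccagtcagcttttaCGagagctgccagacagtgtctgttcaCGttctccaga
Hoxd8 start, chr2:74704365-74704664: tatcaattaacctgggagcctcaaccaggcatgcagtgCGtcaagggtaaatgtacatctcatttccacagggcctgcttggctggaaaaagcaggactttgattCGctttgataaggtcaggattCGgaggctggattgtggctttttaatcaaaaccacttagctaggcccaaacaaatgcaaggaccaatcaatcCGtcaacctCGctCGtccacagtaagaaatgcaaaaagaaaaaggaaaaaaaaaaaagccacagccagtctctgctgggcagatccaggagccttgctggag

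The covered Hoxd11 window held 25 CG dinucleotides, more than 81.6% of all promoter windows, and was 62% G or C. The upstream Hoxd11 window held 4 and the Hoxd8 window held 6, more than 31.4% and 43.6% of windows. The covered window was thus the CG-rich start of the 3 shown. Hox windows without a Gm4665 interval held more CG dinucleotides at Hoxa13 (45), Hoxd13 (37), Hoxd1 (29), Hoxa5 (29) and Hoxa6 (26). Across all promoter windows, those with a Gm4665 interval had a median of 7.5 CG dinucleotides, beside 7 in all windows, and of those over 60% G or C 1.72% had one. Both strands of the windows were searched for 4 motifs. The homeodomain core TAATTA, which reads the same on both strands, occurred once in each Hoxd11 window, at bases 164 to 169 of the covered window and 170 to 175 of the upstream one. The motif TGATTNAT, bound by Hox proteins with their Pbx cofactors, matched the opposite strand of the covered window at bases 178 to 185 and overlapped no other match. TAATTA was held by 5.29% of all promoter windows and by 2 of the 24 Hox windows, and TGATTNAT by 3.22% and 2 of the 24. The YY1 motif GCCATNTT (6.05% of all windows) and the TATA box TATAAA (13.6%) were in none of the 3 windows shown.

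Gm4665 intervals lay within 5 kb of 13 of the 38 Hox genes (34.2%), and LacZ intervals of 2 (5.26%). The same count over protein-coding genes with a span in the range of the Hox genes, 1784 to 44009 bp, was 36.9% for Gm4665 and 12.8% for LacZ. Over all protein-coding genes it was 45.1% and 19%, and over all genes 33.7% and 12.9%. The Hox share for Gm4665 thus lay near the share of genes of like span. No gene was reached by both lists and 23 were reached by neither. The shares of all genes reached by both or by neither were not counted. With only 2 Hox genes reached by LacZ intervals, the lack of a shared gene shows no separation of the lists. Neighbouring Hox genes share windows: 7 of the 9 Gm4665 intervals lay within 5 kb of 2 or more members, so the 13 genes are not 13 separate events. Inside the gene itself, 6 Hox genes held a Gm4665 interval and 1 held a LacZ interval, beside 24.2% and 8.54% of protein-coding genes of like span.

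**Figure D1:**
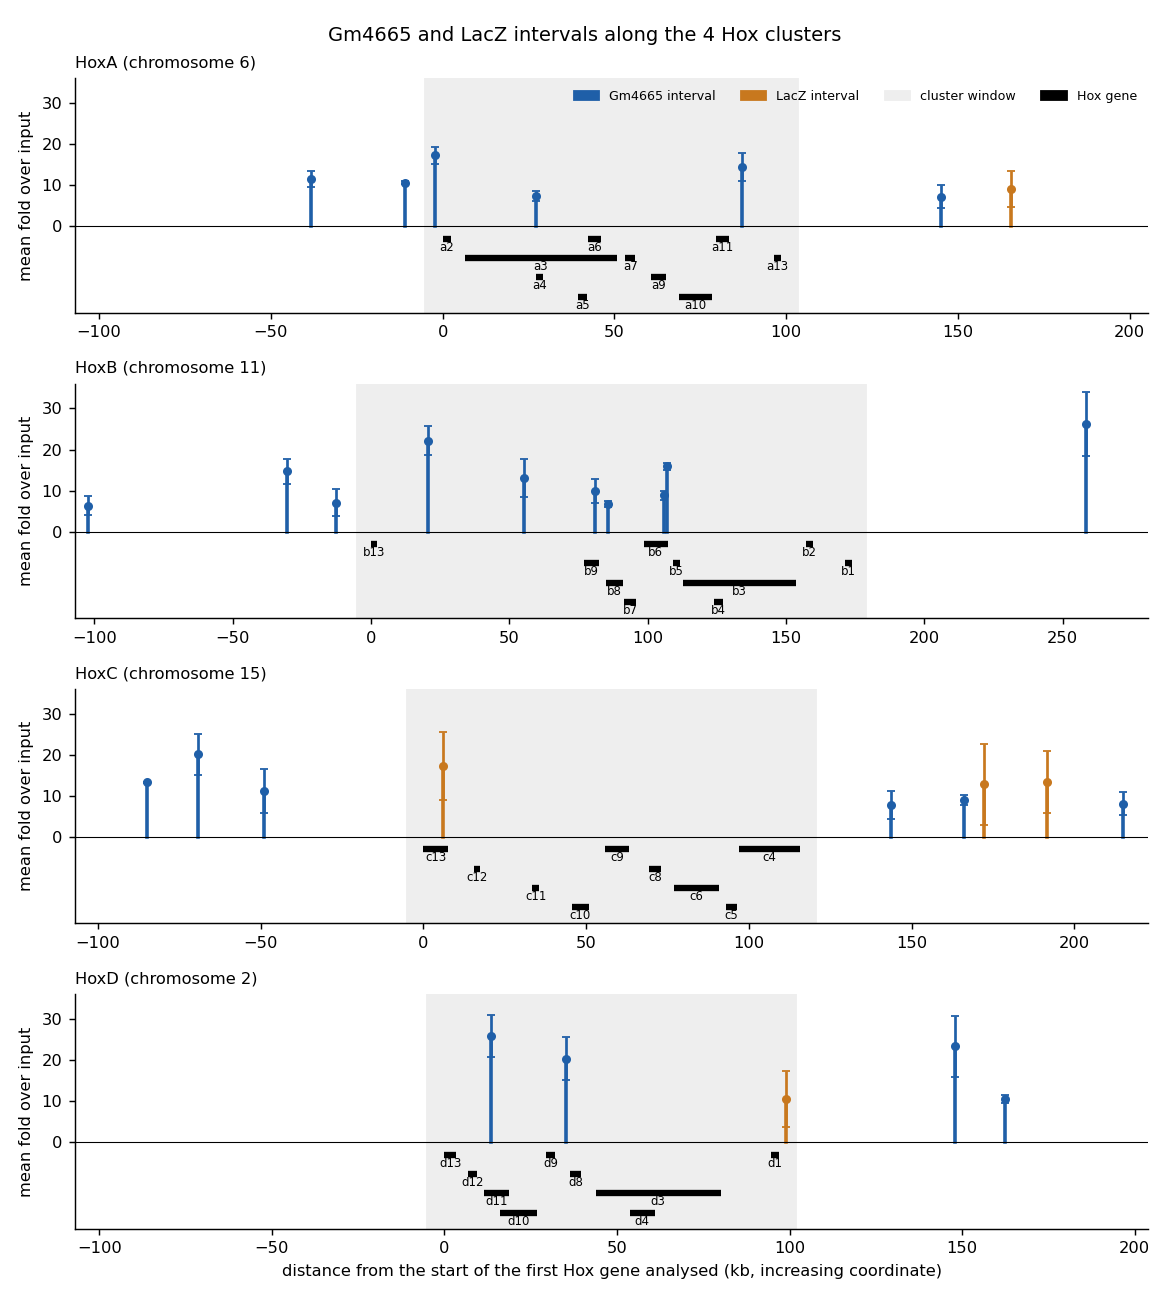
Gm4665 (blue) and LacZ (orange) intervals along each Hox cluster with 100 kb on either side. The x axis is the distance in kb from the start of the first Hox gene analysed towards higher coordinates, the y axis is the mean fold over input of 3 replicates with its SD, black bars are the Hox genes (letter and number), and grey marks the cluster window with 5 kb flanks. HoxC holds no Gm4665 interval and 1 LacZ interval, at Hoxc13, while HoxB holds 6 Gm4665 intervals and no LacZ interval.

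In HoxD, 5 of 9 genes had a Gm4665 interval within 5 kb, from 2 intervals. The Hoxd11 interval had folds of 22.4, 23.7 and 31.8 in replicates 1, 2 and 3 (mean 25.9 ± 5.11, SD, n = 3) and ranked above 90.7% of the list. Its lowest replicate was above the list median of every replicate, and its highest was replicate 3. It also lay 3165 bp from Hoxd12, a digit patterning gene, and 1857 bp from Hoxd10, which acts in hindlimb motor neurons. The other HoxD interval, chr2:74703012-74703866, lay between Hoxd9 and Hoxd8, 749 bp from the start of Hoxd8 and 2804 bp from Hoxd9, and overlapped the lncRNA gene Gm38462. Its folds were 24.3, 14.4 and 22.3 (mean 20.3 ± 5.26, SD, n = 3), above 84.2% of the list, with replicate 2 the lowest. Hoxd13, Hoxd4, Hoxd3 and Hoxd1 had none, at 9267, 18112, 8127 and 50405 bp from the nearest interval. Both HoxD intervals thus lay in the part of the cluster from Hoxd11 to Hoxd8.

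In HoxB, 4 of 10 genes had a Gm4665 interval, and all 4 had 2. Within Hoxb6, a gene expressed in lateral mesoderm, chr11:96300606-96301884 had folds of 16.7, 15.0 and 16.0 (mean 15.9 ± 0.890, SD, n = 3), above 75.1% of the list. Beside it in the same gene, chr11:96299914-96300320 had 10.2, 8.50 and 7.81 (mean 8.83 ± 1.21, SD, n = 3). The stronger of these Hoxb6 intervals was higher in every replicate, without overlap, and both also lay over the antisense transcript Hoxb5os and within 5 kb of Hoxb5, which positions the shoulder girdle. Hoxb9, a thoracic patterning gene, held chr11:96274935-96275407 with folds of 9.28, 7.35 and 13.1 (mean 9.91 ± 2.93, SD, n = 3). Hoxb8, which acts in the spinal cord and in blood cells, held chr11:96279726-96280037 with 7.08, 6.01 and 7.19 (mean 6.76 ± 0.651, SD, n = 3). That was the weakest of the 9 by mean fold, below the list median in every replicate, and both intervals lay within 5 kb of both genes. Hoxb3 and Hoxb7 fell just outside the 5 kb limit, at 5217 and 5567 bp from an interval, while the farthest genes inside it, Hoxa11 and Hoxd12, were at 3254 and 3165 bp. Hoxb13 had its nearest at 12340 bp. A stretch of 150.2 kb with no Gm4665 interval, in which Hoxb5, Hoxb4, Hoxb3, Hoxb2 and Hoxb1 lie, followed the Hoxb6 intervals. Of autosomal gaps in the Gm4665 list, 9.42% were as long, and they held 34.0% of the autosomal sequence.

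The HoxB window also spans the long stretch between Hoxb13, a tail and prostate gene, and Hoxb9, where 2 further Gm4665 intervals lay more than 5 kb from any member. The first, chr11:96214528-96215340, 17918 bp from Hoxb13, had folds of 21.9, 18.7 and 25.9 (mean 22.2 ± 3.61, SD, n = 3). The second, chr11:96249353-96249959, 21371 bp from Hoxb9, had 17.0, 13.9 and 7.94 (mean 13.0 ± 4.63, SD, n = 3). The first was thus the strongest of the 6 HoxB intervals by mean fold and was outside the reach of every Hox gene by the 5 kb rule.

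In HoxA, 4 of 10 genes had a Gm4665 interval, from 3 intervals. Near Hoxa2, which sets the identity of the second pharyngeal arch, chr6:52159809-52160544 lay 1873 bp from the gene and overlapped Hotairm1, a noncoding RNA gene at that end of the cluster. Its folds were 19.8, 16.0 and 16.0 (mean 17.3 ± 2.17, SD, n = 3), above 78.3% of the list. At the other end, chr6:52249064-52249870 lay 3254 bp from Hoxa11 and overlapped its antisense gene Hoxa11os, with 16.2, 10.4 and 16.7 (mean 14.4 ± 3.46, SD, n = 3). Both were above the list median in every replicate. The third, chr6:52189302-52190046, lay in Hoxa4 and the long Hoxa3 entry, genes of the neck and throat region, with 8.87, 6.29 and 7.08 (mean 7.41 ± 1.32, SD, n = 3). It was below the list median in every replicate. Hoxa5, Hoxa6, Hoxa7, Hoxa9, Hoxa10 and Hoxa13 had no interval within 5 kb, with the nearest 8210 to 25577 bp away.

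HoxC had no Gm4665 interval at any of its 9 genes. The list was empty from chr15:102872740-103064596, a stretch of 191.9 kb in which all 9 members lie, from Hoxc13 to Hoxc4. The nearest Gm4665 interval lay 27741 bp from Hoxc4, and Hoxc10 was the farthest gene, at 92699 bp. Stretches as long are not rare in this list: 5.33% of the 37598 autosomal gaps were as long, and they held 23.2% of the autosomal sequence. Of autosomal tiles as wide as the HoxC window, 16% had no Gm4665 interval.

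By position along the body axis, the genes with number 11 had a Gm4665 interval in HoxA and HoxD but not in HoxC, and those with number 9 in HoxB and HoxD but not in HoxA or HoxC. Genes with number 8 had one in HoxB and HoxD but not in HoxC, from the same intervals as the number 9 genes. None of the 4 genes with number 13 had one. Among the members, no number had one in every cluster that carries it. Of protein-coding genes of like span 36.9% had one, and a pattern by number was not tested.

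The LacZ control reached 2 other Hox genes. Hoxc13, a gene of hair and nails, held chr15:102926526-102928038 with folds of 26.8, 11.4 and 13.9 (mean 17.3 ± 8.25, SD, n = 3), above 66.7% of the LacZ list. Near Hoxd1, which acts in pain-sensing neurons, chr2:74766739-74767376 lay 1597 bp away with 18.3, 7.73 and 5.77 (mean 10.6 ± 6.76, SD, n = 3), above 25.5%. Replicate 1 was the highest in both, as in 95.9% of the LacZ list. HoxA and HoxB lay in stretches of 526.2 and 946.3 kb with no LacZ interval. Of autosomal LacZ gaps, 13.0% and 3.81% were as long, and such gaps held 44.8% and 20.7% of the autosomal sequence. Of autosomal tiles as wide as HoxA and HoxB, 67.3% and 52.1% had none, and of tiles as wide as HoxC and HoxD, 36.5% and 32.5% had at least 1, as these clusters did.

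**Figure D2:**
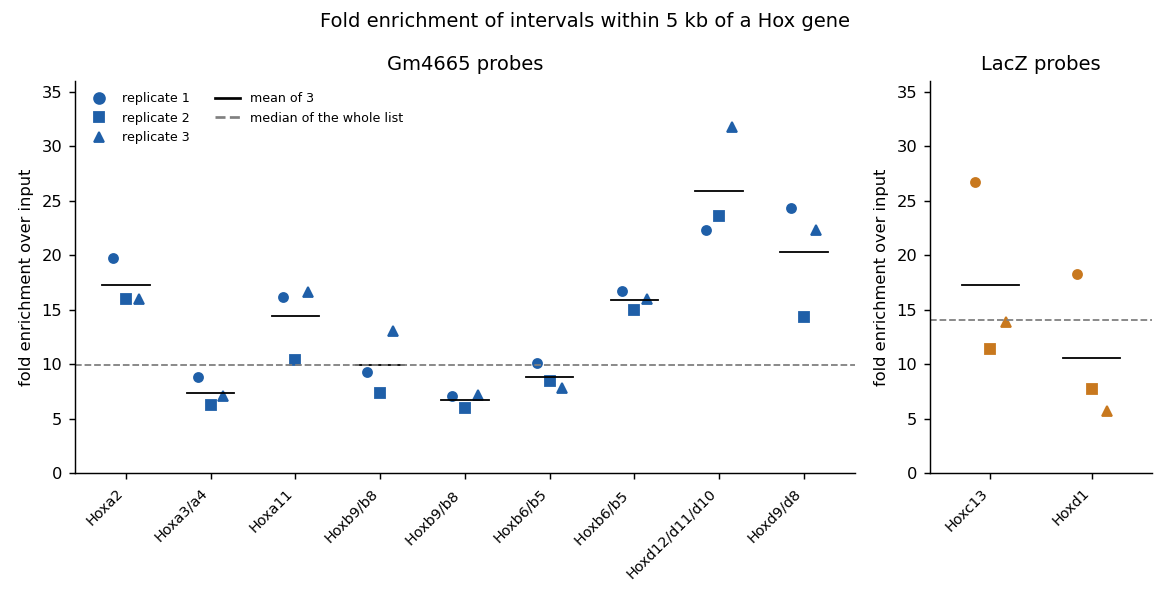
Fold enrichment over input of the intervals within 5 kb of a Hox gene, in order of cluster and position, with Gm4665 probes on the left and LacZ probes on the right. Symbols are the 3 replicates, black lines their mean, and the dashed line the median of the mean folds of the whole list (9.99 for Gm4665 and 14.1 for LacZ). The Hoxd11 interval has the highest mean, and its label also names Hoxd12 and Hoxd10, which it lies near. LacZ replicate 1 stands above the other 2 at both LacZ intervals.

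Folds at Hox genes were spread over the Gm4665 list. Averaged over the 9 intervals, the fold was 15.0, 12.0 and 15.3 in replicates 1, 2 and 3 (mean 14.1 ± 1.86, SD, n = 3). Of the 9, 5 were above the list median in all 3 replicates and 3 in none, beside 36.9% and 37.6% of the whole list. Relative to the median of its own list, the median fold of the Hox intervals was 1.42, 1.23 and 1.56 in the Gm4665 replicates and 0.980, 1.17 and 0.898 in the LacZ replicates. The difference was 0.388 with p = 0.1 by an exact permutation test, two-sided, the smallest p that 3 against 3 allows. The 3 Gm4665 ratios lay above the 3 LacZ ratios without overlap, but the LacZ ratios rest on 2 intervals. The difference was 0.196 with the mean over intervals in place of the median, and 0.251 without replicate 3.

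Interval density was compared between each cluster, with its 5 kb flanks, and 100 kb on either side. The 4 windows together held 11 Gm4665 intervals in 525.0 kb, or 21.0 per Mb (exact 95% Poisson interval 10.5 to 37.5). The flanking 800 kb held 15, or 18.8 per Mb (10.5 to 30.9), and the autosomes 15.7 per Mb. The ratio of clusters to flanks was 1.12, with a 95% interval of 0.464 to 2.60 from the exact binomial share, and became 0.931 with 50 kb on either side. No difference in density was detectable with these counts. These intervals cover counting error only. LacZ intervals numbered 2 in the clusters, 3.81 per Mb (0.461 to 13.8), 3 in the flanks, 3.75 per Mb (0.773 to 11.0), and 3.83 per Mb on the autosomes.

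By cluster, HoxB held 6 Gm4665 intervals in 183.9 kb (32.6 per Mb, 95% Poisson interval 12.0 to 71.0) and its flanks 4 in 200 kb (20 per Mb, 5.45 to 51.2). HoxA held 3 in 108.5 kb (27.7 per Mb, 5.70 to 80.8) and its flanks 3 (15 per Mb, 3.09 to 43.8). HoxD held 2 in 106.9 kb (18.7 per Mb, 2.27 to 67.6) and its flanks 2 (10 per Mb, 1.21 to 36.1). HoxC held 0 in 125.7 kb, which allows up to 29.3 per Mb, and its flanks 6 (30 per Mb, 11.0 to 65.3). HoxC was the only 1 of the 4 below its flanks, and its Poisson interval overlaps that of its flanks, as in the other 3. Of autosomal tiles as wide, 9.34% held as many Gm4665 intervals as HoxB, 24.9% as many as HoxA and 49.3% as many as HoxD.

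**Figure D3:**
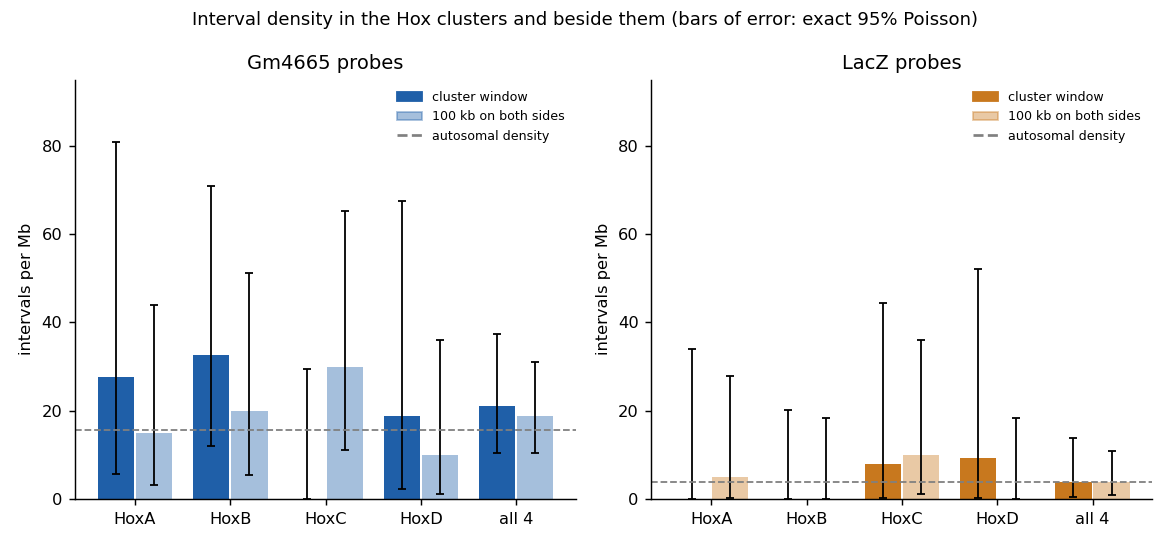
Intervals per Mb in each Hox cluster window (dark bars) and in the 100 kb on both sides of it (pale bars), for Gm4665 probes (left) and LacZ probes (right). Error bars are exact 95% Poisson intervals, which cover counting error only, and the dashed line is the autosomal density (15.7 and 3.83 per Mb). HoxC has no Gm4665 interval beside 30 per Mb in its flanks, and every cluster's error bar overlaps that of its flanks.

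Folds inside the clusters were compared with the flanks in the same libraries. In Gm4665 replicates 1, 2 and 3, the 11 cluster intervals had median folds of 16.7, 13.9 and 16.0 (mean 15.6 ± 1.46, SD, n = 3). The median of the 15 flanking intervals was 11.6, 9.86 and 10.5 (mean 10.6 ± 0.877, SD, n = 3). Pooled over the 4 windows, the clusters were higher in 3 of 3 replicates, without overlap, but this did not hold in each cluster. HoxD was higher than its flanks in every replicate, with medians of 23.3, 19.02 and 27.1 against 21.0, 12.8 and 17.3. HoxA had 16.2, 10.4 and 16.0 against 10.3, 10.5 and 10.5 in its flanks, and was not higher in replicate 2. HoxB had 13.5, 11.2 and 10.5 against 14.3, 9.69 and 9.47 in its flanks, and was lower in replicate 1. HoxC has no cluster value, and its 6 flanking intervals count among the 15. Over the windows of the 38 genes alone, the medians were 16.2, 10.4 and 16.0. They were above those of the flanks in each replicate, narrowly in replicate 2 (10.4 against 9.86), but overlapped them across replicates. No test was made, since the medians come from the same libraries and rest on few intervals. By mean fold, 7 of the 11 cluster intervals and 9 of the 15 flanking intervals were above the list median. Listed intervals covered 1.63% of the cluster windows and 1.15% of the flanks, beside 1.04% of the autosomes.

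The strongest Gm4665 interval in the flanks lay 83831 bp from Hoxb1, in the lncRNA gene Gm11529, with folds of 34.1, 18.5 and 26.2 (mean 26.3 ± 7.82, SD, n = 3). Its mean differed from that of the Hoxd11 interval by less than the SD of either. Beyond Hoxd1, chr2:74815547-74816604 had 30.3, 15.6 and 24.3 (mean 23.4 ± 7.39, SD, n = 3), and chr2:74830454-74831047, in the mitochondrial membrane gene Mtx2, had a mean of 10.6 ± 0.903 (SD, n = 3). The 100 kb on the Hoxd13 side held none. Beside Hoxc13, 3 intervals had mean folds of 20.2, 13.3 and 11.2, and beside Hoxc4, 3 had 9.0, 8.14 and 7.83. Beyond Hoxb13, chr11:96163726-96164170, in the tubulin-modifying gene Ttll6, had 14.7 ± 2.98 (SD, n = 3), and 2 others had 7.07 and 6.39. Beside Hoxa2, 2 had 11.6 and 10.6, and 1 beyond Hoxa13 had 7.20. LacZ intervals in the flanks numbered 2 beyond Hoxc4 (mean folds 13.5 and 12.8) and 1 beyond Hoxa13 (9.07), each with replicate 1 the highest.

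Noncoding RNA genes of the clusters were reached at 4 of 18 with Gm4665 probes and at 1 of 18 with LacZ probes (22.2% and 5.56%), beside 33.7% and 12.9% of all genes. The 4 were Hotairm1 and its neighbour Hotairm2, from the interval near Hoxa2, Hoxa11os and Hoxb5os. Hotair and Hottip, noncoding RNAs that bind chromatin regulators, and the miR-10 and miR-196 genes of the clusters had no Gm4665 interval within 5 kb. The LacZ interval near Hoxd1 also lay within 5 kb of Haglr.

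Genes that act with or on Hox genes were counted in the same way, beside the 45.1% of all protein-coding genes with a Gm4665 interval and the 19% with a LacZ interval. Hox cofactors, which bind DNA together with Hox proteins, had one at 5 of 9 genes with Gm4665 probes and at 5 of 9 with LacZ probes. Gm4665 intervals lay at Meis1 (41.3 ± 19.3), Pknox2 (36.4 ± 6.69) and Meis2 (15.3 ± 1.86; mean fold, SD, n = 3 each), and the strongest LacZ intervals at Pknox2 (24.4 ± 14.0) and Pknox1 (21.9 ± 14.1; SD, n = 3 each). Cofactor genes are far longer, with a median span of 139.2 kb beside 3.72 kb for Hox genes. Of 6 ParaHox and Cdx genes, the nearest relatives of Hox genes, Gsx1 (19.2 ± 3.63), Pdx1 (18.4 ± 2.43) and Cdx1 (4.45 ± 1.33; SD, n = 3 each) had a Gm4665 interval and none a LacZ interval.

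Polycomb subunits, which hold Hox genes silent, had a Gm4665 interval at 19 of 32 genes (59.4%) and a LacZ interval at 2 (6.25%). These genes are longer than Hox genes, with a median span of 33.5 kb beside 3.72 kb. With their 5 kb flanks they held 14.8 Gm4665 intervals per Mb, beside 15.7 on the autosomes. The strongest were at Bmi1 (27.7 ± 4.03), Kdm2b (27.4 ± 4.84), Pcgf5 (26.6 ± 4.63) and Phc1 (22.3 ± 5.10; SD, n = 3 each). Trithorax group genes, which keep Hox genes active, had one at 4 of 10 with Gm4665 probes and at 1 of 10 with LacZ probes: Kdm6b (41.0 ± 5.68), Ash1l (14.6 ± 2.18), Kmt2b (8.90 ± 2.58) and Kmt2a (6.81 ± 2.66; SD, n = 3 each). Kdm6b, which removes the Polycomb mark, was the strongest of these. Among other Polycomb-held developmental regulators 31 of 80 (38.8%) had a Gm4665 interval and 15 (18.8%) a LacZ interval. Those with a Gm4665 interval included the blood factor Gata2 (60.8 ± 16.4), the neuronal factor Neurog1 (49.7 ± 4.93) and the heart and limb factor Tbx2 (34.9 ± 12.5; SD, n = 3 each). The median of the mean folds was 14.4 at Hox genes, beside 9.99 for the whole list. It was 18.4 at ParaHox and Cdx genes, 15.3 at Hox cofactors and 9.85 at trithorax group genes. At the other developmental regulators it was 9.29, and at Polycomb subunits 8.74, so the Hox value lay within the range of these lists. At the noncoding RNA genes of the clusters it was 15.2, but their 4 intervals are all among the 9 at Hox genes.

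**Figure D4:**
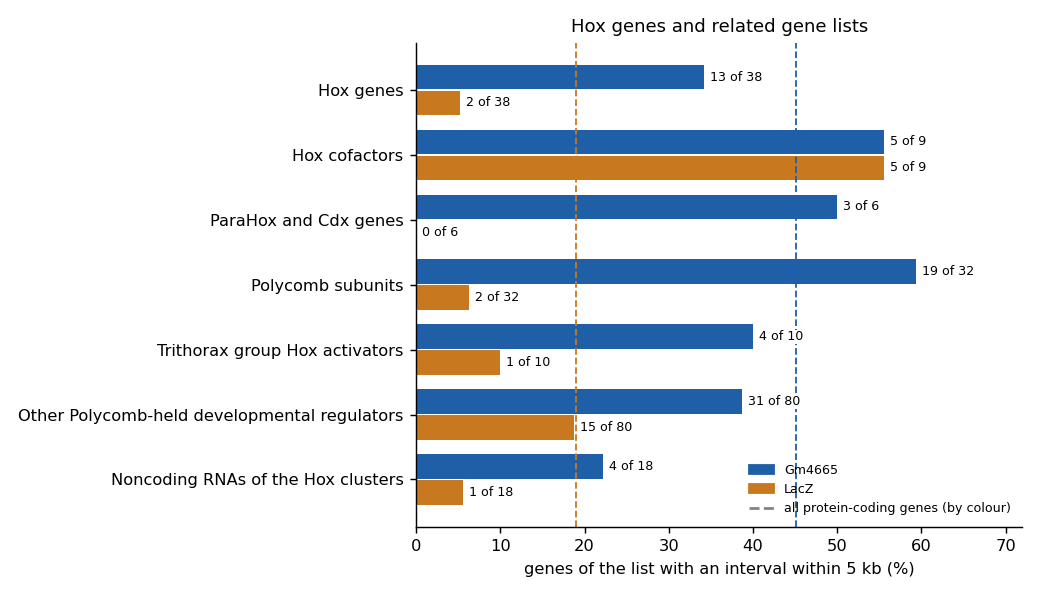
Share of genes with a Gm4665 (blue) or LacZ (orange) interval within 5 kb, for the Hox genes and 6 related gene lists, with the count beside each bar. Dashed lines give the share of all protein-coding genes (45.1% and 19%). The Hox genes stand at 34.2% and 5.26%, and the lists differ in gene length, which the shares do not correct for.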

How the data were processed

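Chromatin retrieved with Gm4665 or LacZ probes, and input, was sequenced in 3 replicates each, grouped by sample title. The authors deposited 1 interval list per probe set, and the file names give MACS2 as the caller. Its version and settings, the aligner and how replicates were joined: not given in the sources used here. Per the file headers, each row holds a linear fold enrichment (a ratio over input) for each replicate and a pileup signal whose replicate is not named. The build is mm10, per the submitters' processing notes.

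Rows repeating an interval were joined, the highest fold of each replicate kept, and chromosomes 1 to 19, X and Y used. Genes starting below 3 Mb outside Y were left out. Genes, promoter windows and motifs came from RefSeq tables of GRCm38.p6. Poisson and binomial intervals are exact. Input libraries entered only through the fold. Presence of an interval has no replicate check, since each list is 1 set of intervals. The overlap counting was tested on simulated intervals. Python 3.11.15, pandas 2.3.3 and scipy 1.17.1 were used.

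The members and lists were chosen with earlier results of these data known. All members are accounted for, each interval in a cluster or its flanks is given, and up to 4 members of each related list are named by mean fold, apart from some that are not reported here.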

Additional observations from a re-analysis of the deposited data

How the results depend on the processing

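Alternatives varied the flank, the overlap rule, the fold threshold, the length of the list and the replicates. Without a flank 6 Hox genes had a Gm4665 interval and 1 a LacZ interval, since less sequence was searched, and 6 had a Gm4665 interval with that list reduced to the 9448 strongest. With a mean fold of at least 10, HoxB held 3 Gm4665 intervals. The other alternatives for counts stayed within 1.5 times of the values reported, and HoxC held 0 Gm4665 intervals under all 5 run for it. The density ratio of clusters to flanks was 0.931 to 1.15, with 1.08 over the windows of the 38 genes alone, an alternative chosen after seeing the data. With the replicate number as a block, the fold ratio difference of 0.388 had exact permutation p = 0.25, the smallest the block allows. At the 347 pairs of overlapping intervals, same-numbered replicates did not deviate together (r of -0.050, -0.043 and -7.8e-05), and no Gm4665 replicate correlated best with the LacZ replicate of its own number, so the numbers were not taken as pairs. With the mean over intervals in place of their median, the difference was 0.196 (exact permutation p = 0.1). Without each replicate in turn, it was 0.251 to 0.552, the mean fold at Hox genes 13.5 to 15.2 with Gm4665 probes and 9.69 to 16.2 with LacZ probes. Which positions are listed has no version that leaves out a replicate. With 9 and 2 intervals at Hox genes, depth and list length limit what could be detected.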
